A study of Mus musculus with 2 samples.

Results

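The F-box proteins and cullins are the receptor and scaffold subunits of the largest family of ubiquitin ligases. They were taken from the deposited count table by name: symbols made of Fbxo, Fbxl, Fbxw or Cul and a digit, plus Skp1a, Skp2 and Rbx1. The rule found 87 genes among 23418 rows. They are 37 Fbxo, 18 Fbxl and 8 Fbxw genes, 12 oocyte-type Fbxw copies that lie side by side on chromosome 9, Fbxw17 on another chromosome, 8 cullins, and the 3 named subunits. The data are 2 libraries of bead-captured polyadenylated RNA from C57BL/6 mouse embryos at the 4 to 8-cell stage. One pool of 20 embryos had received an siRNA against Dnmt1, the enzyme that copies DNA methylation to new strands (siDnmt1), and the other pool of 20 a scrambled siRNA. Injection of an siRNA lowers a transcript for a limited time and leaves the gene intact, and both pools were injected. With 1 library a group no difference has a replicate check and no p-value was computed.

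A cullin is a long scaffold that binds at one end a RING protein, Rbx1 or Rnf7, which recruits a ubiquitin-charged E2 enzyme. At the other end it binds an adaptor and a receptor that picks the substrate. Cul1 uses the adaptor Skp1 and an F-box protein as receptor, which makes the SCF ligase. Its F-box proteins are sorted by their substrate-binding part into Fbxw (WD40 repeats), Fbxl (leucine-rich repeats) and Fbxo (other). Attachment of the small protein Nedd8 activates the cullin, the COP9 signalosome removes it, and Cand1 exchanges the receptors. In oocytes and embryos these ligases degrade cell cycle regulators and maternal proteins.

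The libraries held 12236615 (siDnmt1) and 11675483 counts (scrambled). Rn45s, the ribosomal RNA precursor, took 37.3% and 29.9% of them. Dnmt1 itself had 687 counts against 847, 1.23-fold lower in the siDnmt1 library (95% interval 1.11 to 1.37). On the log2 scale defined below, the quartiles of all genes compared were -0.67 and 0.57, and Dnmt1 lay between them. Its difference was thus no larger than that of many other genes. All 13 of the cleavage-stage embryo and oocyte markers examined had a count in the scrambled library and 11 in the siDnmt1 library, where Zscan4c and Zscan4d were at 0. Their summed counts were 62881 (siDnmt1) and 36487 (scrambled), most of them from Sp110 (60968 and 32953). Of the 13, 11 had a lower count in the siDnmt1 library, among them Pou5f1 (1489 against 2152), Zfp352 (112 against 802) and Dppa3 (70 against 194), and Sp110 and Gdf9 had a higher one. Of 9 cumulus and granulosa cell markers, 7 were at 0 in both libraries, and Inhbb, at 53 and 26, held nearly all the counts of that list. The blood list had 16 and 6 counts, all from Ptprc, and 3 sperm markers were at 0. Fold changes below are plain ratios of counts, and each interval is a 95% Clopper-Pearson interval that covers counting error only. Each count is taken as independent, so reads copied in PCR would make the intervals too narrow. In pooled embryos, fewer cells that express a gene and less RNA per cell cannot be told apart.

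Of the 87 genes, 76 had a count in at least 1 library and 41 reached a mean of 20 counts, the level required for comparison. On the scale log2((siDnmt1 + 5)/(scrambled + 5)), 8 of the 41 (19.5%) were at least 2-fold higher in the siDnmt1 library, where 12.5% of all 7315 genes compared were. Another 7 (17.1%) were at least 2-fold lower, against 16.7% of all genes, and 26 lay within 2-fold. The share of members lower was thus close to that of all genes. The median log2 ratio of the 41 was 0.04, with an order-statistic interval of -0.38 to 0.48 over the members, and the median of all genes compared, -0.02, lies inside it. F-box genes stood at both extremes, Fbxo18 with a log2 ratio of 2.55 and Fbxl21 with -3.72.

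**Figure D1:**
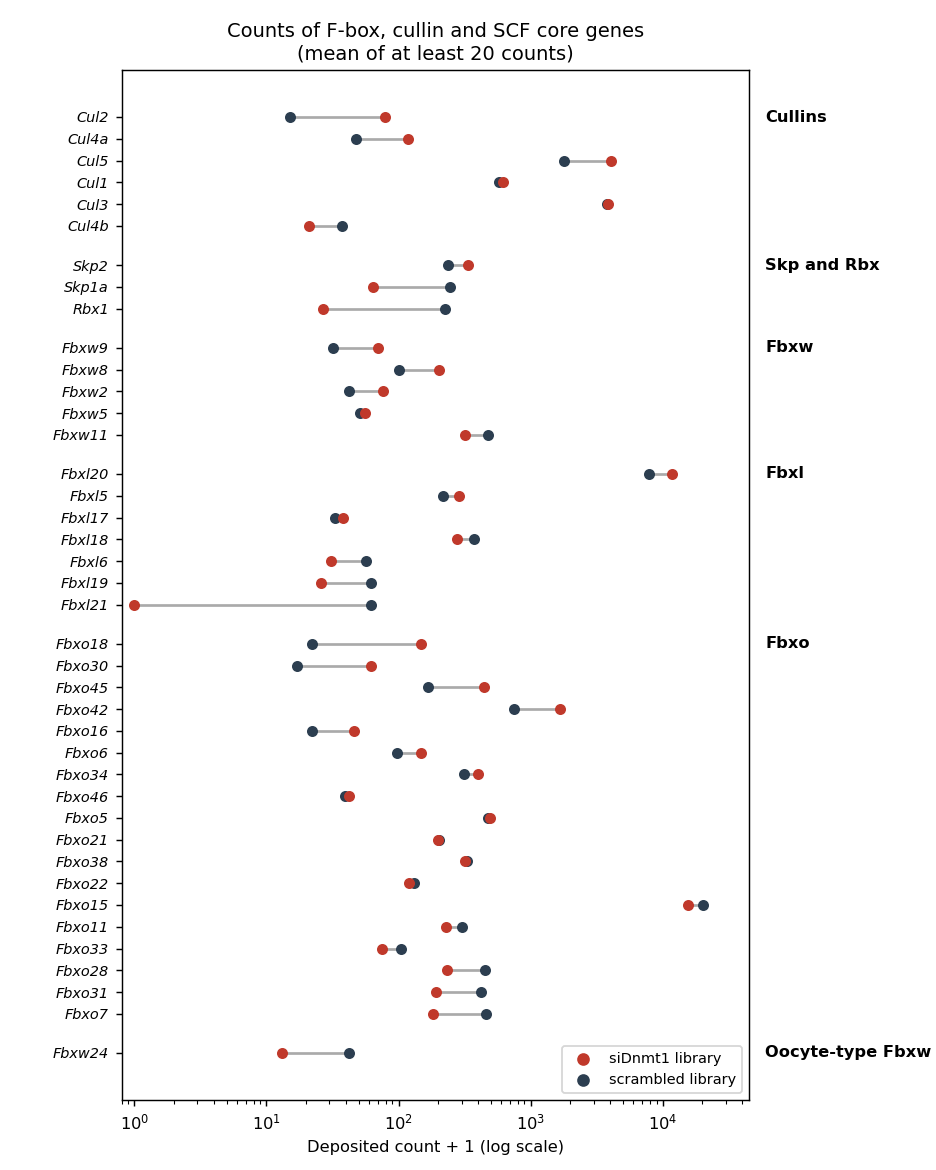
Counts of 40 of the 41 members averaging 20 counts or more in the siDnmt1 (red) and scrambled (dark) libraries, as count + 1 on a log axis, ordered by log2 ratio within each subgroup. Each point is 1 library. Fbxl21 is at 0 against 61, Rbx1 at 26 against 223, and Fbxo15 and Fbxl20 stand at the right with the highest counts.

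Among the cullins, Cul3 and Cul5 held most of the transcripts. Cul3, the scaffold for BTB-domain receptors, had 3827 counts after siDnmt1 and 3768 after the scrambled siRNA, a 1.02-fold difference (0.971 to 1.06) whose interval includes equality. Cul5, which carries SOCS-box receptors and pairs with Rnf7, had 4075 counts against 1790 and was 2.28-fold higher (2.15 to 2.41). The first place among cullin counts therefore differed: Cul5 took 46.5% (45.5 to 47.6) in the siDnmt1 library, and Cul3 60.2% (59.0 to 61.4) in the scrambled library. Cul1, the SCF scaffold, had 617 and 573 counts, within counting error of each other (1.08-fold, 0.959 to 1.21). With totals outside Rn45s set equal, the intervals of Cul3 (1.04 to 1.13) and Cul1 (1.02 to 1.29) no longer include equality. The transcript of Cul5 is long (5945 nt). After removal of the trend of the log2 ratio with transcript length over all genes, its log2 ratio of 1.18 became 1.04.

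The other cullins were far less abundant. Cul2, the scaffold of the von Hippel-Lindau ligase, had 78 counts against 14 (5.57-fold higher in siDnmt1, 3.13 to 10.7), and its log2 ratio of 2.13 was exceeded by few genes (percentile 97.7 of those compared). Cul4a, which works with Ddb1 in DNA repair and replication licensing, had 118 against 47 (2.51-fold higher, 1.78 to 3.60). Its paralog on the X chromosome, Cul4b, went the other way, with 20 counts against 36 (1.80-fold lower, 1.01 to 3.28). With totals outside Rn45s set equal its interval includes equality (1.69-fold lower, 0.95 to 3.07). Cul7, whose receptor is Fbxw8, had 12 and 14 counts, and Cul9, a cytoplasmic relative that binds p53, had 9 and 16. Both were below the level for comparison. Of the 6 cullins compared, 3 were higher by 2-fold or more and 0 lower by as much, beside 12.5% and 16.7% of all genes, with a median log2 ratio of 0.65. In so few genes 0 lower is near the share of all genes. After removal of the trend of the log2 ratio with transcript length over all genes, the median of the 6 was 0.59.

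Levels of different genes were compared as counts per kilobase of the longest transcript scaled to the library's counts outside Rn45s. On that scale Cul3 stood at 106 after siDnmt1 and at 97.7 after the scrambled siRNA, Cul5 at 89.4 and 36.8, and Cul1 at 25.4 and 22.1. Cul4a followed at 4.13 and 1.54, Cul2 at 2.66 and 0.447, and Cul4b at 0.777 and 1.31. Cul7 (0.283 and 0.309) and Cul9 (0.139 and 0.231) were lowest. The order of the 3 most abundant cullins was the same in both libraries, while Cul4b lay above Cul2 in the scrambled library and below it in the siDnmt1 library.

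Of Skp1a, Skp2 and Rbx1, 2 were at least 2-fold lower and 0 higher by as much, beside 16.7% and 12.5% of all genes. In 3 genes 0 higher is near the share of all genes, and such counts say little about the set. Rbx1, the RING protein, had 26 counts after siDnmt1 and 223 after the scrambled siRNA, 8.58-fold lower (5.70 to 13.4). Skp1a, the adaptor between Cul1 and the F-box, had 63 against 245, 3.89-fold lower (2.94 to 5.21). Their log2 ratios of -2.88 and -1.88 were at percentiles 1.65 and 5.17 of all genes compared. Short transcripts had lower ratios in this pair of libraries: the 477 genes under 1500 nt had a median log2 ratio of -1.04, and the 2058 of 5000 nt or more one of 0.17. The longest transcripts of Skp1a and Rbx1 have 1754 and 2669 nt, and the longest coding one of Rbx1 has 1675 nt. With the length trend removed the log2 ratios were -1.46 for Skp1a and -2.78 for Rbx1, and -2.44 for Rbx1 on its coding length, so both stayed past 2-fold. The per-length level of Rbx1 was 1.27 against 10.2, and that of Skp1a 4.68 against 17.1. In the scrambled library Skp1a therefore stood close to Cul1 (22.1), and in the siDnmt1 library it stood well below it (25.4). Rnf7, the other RING protein of cullins, had 529 counts against 800 (1.51-fold lower, 1.35 to 1.69). Its transcript is short (1232 nt), and its log2 ratio of -0.59 became 0.26 with the length trend removed.

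**Figure D2:**
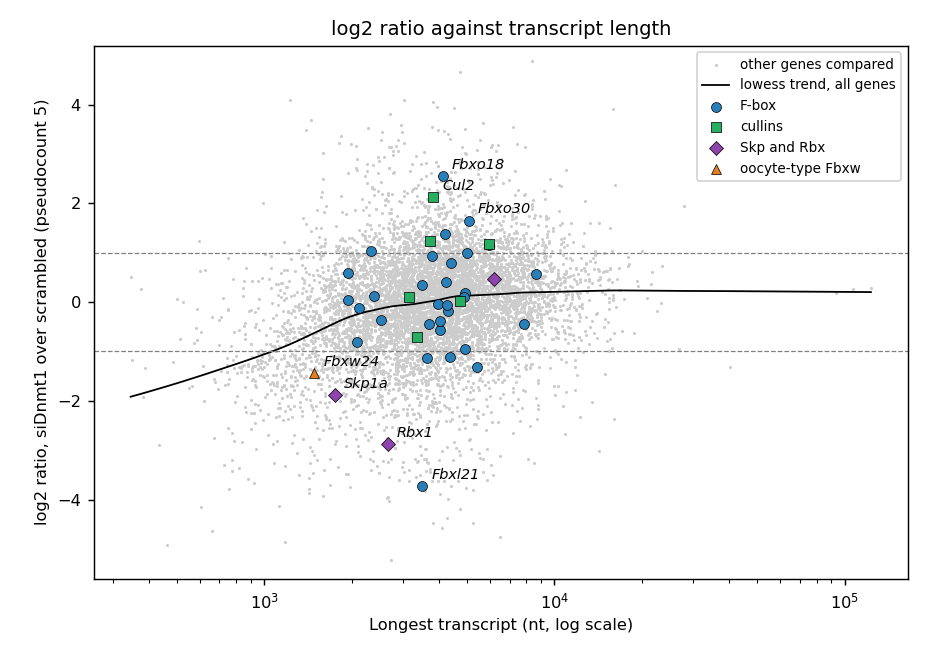
log2 ratio of each gene averaging 20 counts or more against the length of its longest transcript (log axis), with all genes in grey, their lowess trend as a line, members as coloured symbols and 2-fold as dashed lines. Rbx1 and Skp1a lie below the trend at their lengths, and Fbxo18 and Cul2 above it.

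The promoter of Rbx1 is shown because the study concerns DNA methylation, which in mammals falls on CpG dinucleotides, and because Rbx1 had the lowest ratio of the core subunits. It is the RefSeq window of 300 bases, 250 before to 50 after the gene start, at chr15:81466066-81466365 of GRCm38.p6, plus strand, with its 29 CpG dinucleotides in capitals. Methylation was not measured in these libraries.
Rbx1: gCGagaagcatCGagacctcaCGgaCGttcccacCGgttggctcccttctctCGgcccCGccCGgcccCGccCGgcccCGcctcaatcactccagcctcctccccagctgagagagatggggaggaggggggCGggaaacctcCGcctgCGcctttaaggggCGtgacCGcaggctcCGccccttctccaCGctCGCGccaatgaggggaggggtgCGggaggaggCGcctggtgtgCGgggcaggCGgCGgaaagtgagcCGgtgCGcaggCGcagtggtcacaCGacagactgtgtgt

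Skp2, the F-box protein that sends the inhibitor p27 for degradation, had 333 counts against 238 and was 1.40-fold higher (1.18 to 1.66). Its per-length level was 7.02 against 4.70. The mRNA of its substrate, Cdkn1b, had 0 counts against 6, too few to compare, and Cks1b, the cofactor that Skp2 needs for p27, had 43 against 62 (1.44-fold lower, 0.962 to 2.18). The transcript of Cks1b has 849 nt, and its log2 ratio of -0.48 became 0.72 with the length trend removed.

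F-box counts were concentrated in a pair of genes. Among the 63 Fbxo, Fbxl and Fbxw genes outside the oocyte-type copies (Fbxw17 and Skp2 not counted), Fbxo15 and Fbxl20 held 80.7% (80.3 to 81.1) of 33861 counts after siDnmt1 and 82.3% (81.9 to 82.7) of 34025 after the scrambled siRNA. Fbxo15, a gene of pluripotent cells and a target of Oct4, had 15622 counts against 20105, a 1.29-fold lower value (1.26 to 1.31). Its per-length level of 804 against 970 was the highest of all members in both libraries. Fbxl20, also called Scrapper and known for degrading a presynaptic protein, had 11711 against 7912 and was 1.48-fold higher (1.44 to 1.52). Its level was 178 against 112. With totals outside Rn45s set equal, Fbxo15 was 1.21-fold lower (1.18 to 1.23) and Fbxl20 1.58-fold higher (1.54 to 1.63). The intervals of both exclude equality, and each gene lay within 2-fold, as 22 of the 31 of these genes compared did. The counts of these 63 genes together differed little, with a ratio of 0.995. That sum rests mostly on Fbxo15 and Fbxl20, which went in opposite directions. Counts outside Rn45s were 7670163 (siDnmt1) and 8187941 (scrambled), so with those totals set equal the ratio would be higher.

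Of the WD40 receptors, 5 of 8 reached the level for comparison. Fbxw9 had 69 counts against 31 and was 2.23-fold higher (1.44 to 3.52). Fbxw8, the receptor of Cul7, had 201 against 99 (2.03-fold higher, 1.59 to 2.61), just inside 2-fold on the log2 scale at 0.99. An annotated antisense transcript, Gm9754, covers 33.4% of its exonic bases, and whether reads were counted by strand is not given in the sources used here. Fbxw2 was 1.83-fold higher (1.23 to 2.75), and Fbxw5, with 55 and 50 counts, did not differ beyond counting error. Fbxw11, one of the paired receptors that recognise phosphorylated beta-catenin and I-kappa-B, had 320 against 473 (1.48-fold lower, 1.28 to 1.71). It was the most abundant Fbxw gene per length in both libraries, at 10.4 and 14.4. Fbxw7, the receptor for cyclin E, Myc and Notch, had 18 and 12 counts and was not compared.

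Of the leucine-rich receptors, 8 of 18 were compared, 0 were higher by 2-fold or more and 2 were lower by as much. In 8 genes both counts are near the shares of all genes, 12.5% and 16.7%. Fbxl21, which binds cryptochromes of the circadian clock, had 0 counts after siDnmt1 and 61 after the scrambled siRNA, at least 20.3-fold lower when the 0 is set at a floor of 3 counts. That floor leaves out the counting error of the 61, and the lower limit of the counting interval is 16.0-fold. Fbxl19, which carries a zinc finger that binds unmethylated CpG-rich DNA, had 25 against 61 (2.44-fold lower, 1.51 to 4.06). Fbxl5, the iron-sensing receptor, was 1.33-fold higher (1.11 to 1.59, 288 counts against 217), Fbxl18 was 1.36-fold lower (1.16 to 1.60) and Fbxl6 1.87-fold lower (1.18 to 3.01). After Fbxl20, the most abundant per length in the scrambled library were Fbxl5 at 6.25 and Fbxl18 at 5.80.

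Of the 37 Fbxo genes, 18 were compared, of which 4 (22.2%) were higher by 2-fold or more and 2 (11.1%) lower by as much. Among all genes the shares were 12.5% and 16.7%, and in 18 genes both counts are near them. Fbxo18, a DNA helicase that acts at stalled replication forks, had 147 counts against 21 and was 7.0-fold higher (4.41 to 11.6). Its log2 ratio of 2.55 was the highest of the members, at percentile 98.7 of all genes. Fbxo30, known for limiting muscle mass, had 61 against 16 (3.81-fold higher, 2.17 to 7.08). Fbxo45, which acts in neurons with Mycbp2 in place of the usual SCF partners, had 440 against 166 (2.65-fold higher, 2.21 to 3.19). Fbxo42, a receptor reported to act on p53, had 1672 against 750 (2.23-fold higher, 2.04 to 2.43). Fbxo16 had 45 against 21, and its log2 ratio of 0.94 was inside 2-fold.

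On the lower side, Fbxo7, a mitophagy and proteasome factor mutated in a form of parkinsonism, had 183 counts against 461 (2.52-fold lower, 2.12 to 3.01). Fbxo31, which degrades cyclin D1 after DNA damage, had 191 against 420 (2.20-fold lower, 1.85 to 2.62). Fbxo28 had 233 against 453 (1.94-fold lower, 1.66 to 2.29), inside 2-fold, and past it at -1.07 once the length trend was removed. The transcripts of Fbxo7, Fbxo31 and Fbxo28 are long (5388, 4358 and 4925 nt), unlike those of Skp1a and Rbx1.

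Of the F-box proteins of meiosis and the cell cycle, Fbxo5 did not differ beyond counting error and Fbxo43 was scarce. Fbxo5 (Emi1), the inhibitor of the anaphase-promoting complex, had 493 and 479 counts, a 1.03-fold difference (0.906 to 1.17), and was the second Fbxo gene per length in the scrambled library at 30.2. Fbxo43 (Emi2), which holds the egg in metaphase until fertilisation, had 3 and 5 counts. Fbxo34 was 1.27-fold higher (1.09 to 1.48, 400 counts against 315). Fbxo38, Fbxo22, Fbxo21 and Fbxo46 had intervals that include equality, at 318 and 331, 120 and 130, 199 and 203, and 41 and 38 counts. Over all 41 members compared, 10 intervals included equality and 31 did not. The same count over all genes was not made, so these numbers show nothing particular to the members. With totals outside Rn45s set equal the number that included it was again 10, but Cul1 and Cul3 left and Cul4b and Fbxo33 (74 against 103 counts) joined.

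The 46 members below a mean of 20 counts included 11 at 0 in both libraries and 35 with some counts, of which 25 was the highest. Of the 35, 8 had no count after siDnmt1 and 7 none after the scrambled siRNA. The matching share among all genes below that mean is not given here. Fbxo3 had 0 against 9 and Fbxo9 0 against 10, while Fbxl8 had 6 against 0. Fbxo44 had 10 against 2. Those at 0 in both include Fbxo2, a receptor for glycoproteins in neurons, and Fbxo24, Fbxo39 and Fbxw10. A gene at 0 may be present at up to 3 counts per library, so its absence is not shown.

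The oocyte-type Fbxw copies are related genes clustered on chromosome 9, known from oocytes and early embryos. The first 75 coding bases of the copies with at least 4 counts in a library, and of Fbxw14, are shown because their likeness bears on how reads were assigned. They are from GENCODE M21, and capitals mark a base that differs from the commonest one at that position over the 12 copies.
Fbxw13: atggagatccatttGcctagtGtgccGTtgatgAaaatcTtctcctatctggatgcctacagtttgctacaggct
Fbxw14: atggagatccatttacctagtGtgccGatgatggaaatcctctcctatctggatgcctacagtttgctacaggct
Fbxw15: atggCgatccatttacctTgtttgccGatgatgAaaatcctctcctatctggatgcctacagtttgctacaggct
Fbxw16: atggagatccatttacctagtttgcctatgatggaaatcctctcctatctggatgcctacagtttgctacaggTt
Fbxw19: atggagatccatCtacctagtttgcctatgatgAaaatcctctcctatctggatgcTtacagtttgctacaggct
Fbxw21: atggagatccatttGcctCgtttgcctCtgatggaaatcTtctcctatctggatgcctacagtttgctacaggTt
Fbxw24: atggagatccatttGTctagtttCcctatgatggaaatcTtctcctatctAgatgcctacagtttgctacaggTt
Fbxw28: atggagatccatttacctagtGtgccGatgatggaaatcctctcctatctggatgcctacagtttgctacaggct

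Over the 66 pairs of the 12 copies, 80.2% to 99.1% of the aligned coding bases were identical, with a median of 84.4%. Fbxw14 and Fbxw28 were the closest pair and shared an unbroken run of 345 bases, while the median pair shared one of 56 bases. Fbxw17 was at most 62.6% identical to any of the copies. The sources used here do not say how reads with several matches were treated, so the split of counts among copies is uncertain. Together the 12 copies had 42 counts after siDnmt1 and 99 after the scrambled siRNA.

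Fbxw24 was the only copy compared, with 12 counts against 41 (3.42-fold lower in siDnmt1, 1.76 to 7.14). Its transcript has 1488 nt, and with the length trend removed its log2 ratio of -1.44 became -0.81, inside 2-fold. Fbxw16 had 3 counts against 25 (ratio 8.33, 2.54 to 43.1) and Fbxw19 had 8 against 18 (2.25-fold lower, 0.931 to 5.98). Fbxw21 had 0 against 6, Fbxw28 0 against 5, Fbxw22 1 against 3 and Fbxw20 0 against 1. In the other direction Fbxw13 had 14 counts against 0, at least 4.67-fold higher when the 0 is set at 3 counts, with a lower limit of the counting interval of 3.32-fold. Fbxw15 had 4 against 0. Fbxw14, Fbxw18 and Fbxw26 were at 0 in both libraries. Fbxw17 had 3 against 0. The longest transcripts of the copies have 1485 to 2244 nt, and of all genes under 1500 nt, 245 of 477 were at least 2-fold lower. Of the oocyte markers, Zp3 (13 against 42), Bmp15 (3 against 19) and Khdc3 (8 against 27) also had fewer counts in the siDnmt1 library. Nlrp5 (189 against 257) and Oosp1 (1 against 2) differed less, and Gdf9 went the other way (27 against 24). The part of transcript length or of oocyte RNA in the counts of the copies was not tested.

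**Figure D3:**
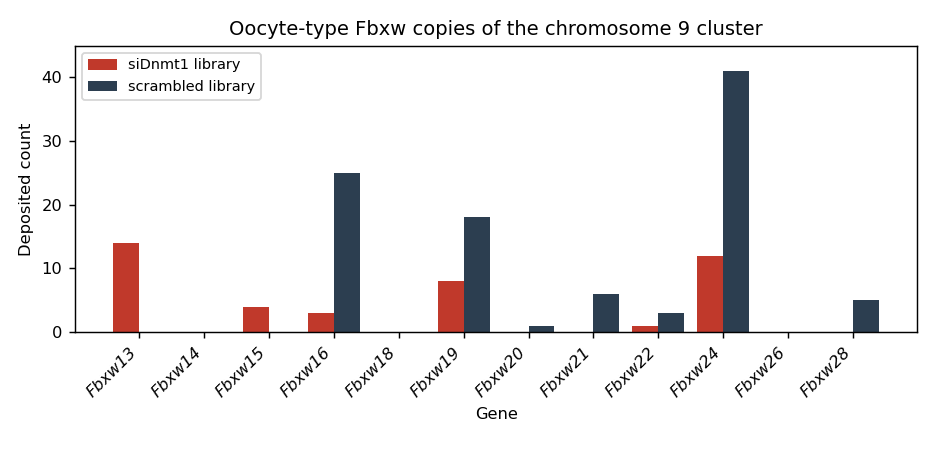
Deposited counts of the 12 oocyte-type Fbxw copies in the siDnmt1 (red) and scrambled (dark) libraries, 1 library each. Fbxw24 (12 and 41), Fbxw16 (3 and 25) and Fbxw19 (8 and 18) are taller in the scrambled library, and Fbxw13 (14 and 0) in the siDnmt1 library.

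The promoters of these copies held fewer CpG dinucleotides than those of the other subgroups. In RefSeq promoter windows of 300 bases (GRCm38.p6), matched for 68 of the 87 genes, the CG dinucleotide was counted, which reads the same on both strands. It was present in 94.6% of the 27025 genes with a window, with a median of 7 per window. Genes averaging 20 counts or more had a median of 22. The medians were 27 for cullins, 20 for Fbxo, 21.5 for Fbxl and 17 for Fbxw genes, and 1 for the 10 oocyte-type copies matched, which ranged from 0 to 4. Members at least 2-fold higher and lower had medians of 33 (n = 6) and 29 (n = 7), and those within 2-fold 20 (n = 19). The window of Fbxw24, at chr9:109626010-109626309 of GRCm38.p6, minus strand, is given for contrast with that of Rbx1, with its 2 CpG dinucleotides in capitals. It ends inside the coding sequence printed above.
Fbxw24: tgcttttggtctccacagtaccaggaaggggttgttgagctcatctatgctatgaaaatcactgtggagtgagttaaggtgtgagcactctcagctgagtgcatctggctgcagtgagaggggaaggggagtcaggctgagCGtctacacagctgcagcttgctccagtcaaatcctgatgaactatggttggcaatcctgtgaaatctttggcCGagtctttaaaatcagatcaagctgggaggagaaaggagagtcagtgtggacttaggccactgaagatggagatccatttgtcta

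**Figure D4:**
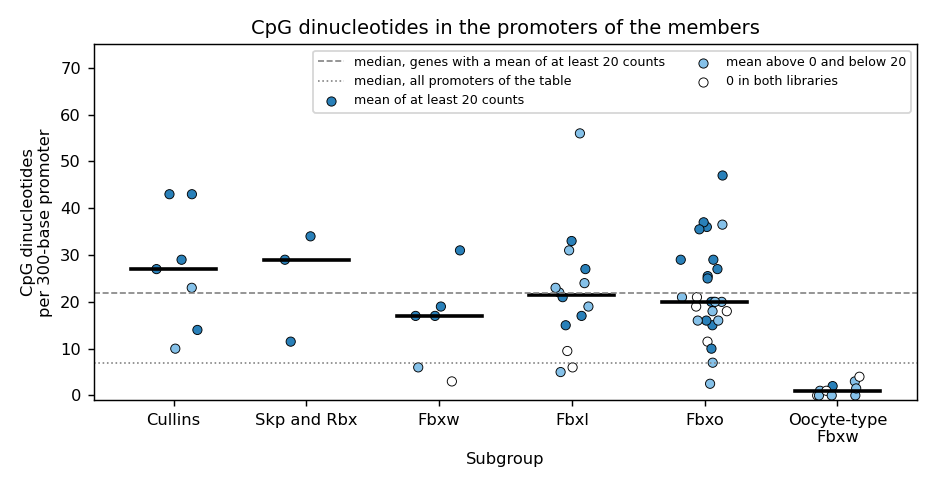
CpG dinucleotides in the 300-base promoter window of each matched member by subgroup, with black bars at the medians and fill showing the expression class. The oocyte-type copies lie between 0 and 4, below the median of 7 of all promoters (dotted) and that of 22 of genes averaging 20 counts or more (dashed), and the cullins between 10 and 43.

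Other genes of the same ligases were examined from lists of their known parts. Their counts past 2-fold stand beside 12.5% higher and 16.7% lower among all genes, and in lists this short a few genes more or fewer than that say little about the list. Of the COP9 signalosome, which removes Nedd8 from cullins, all 9 subunits were compared: 3 (33.3%) were at least 2-fold lower, 1 (11.1%) was at least 2-fold higher, and the median log2 ratio was -0.93. Cops3 had 5 counts against 35 (7.0-fold lower, 2.73 to 22.9), Cops8 70 against 212 and Cops7b 167 against 423 (2.53-fold lower, 2.11 to 3.05). Cops2, however, had 160 against 45 (3.56-fold higher, 2.54 to 5.07). The median transcript of the 9 was short (2204 nt), and with the length trend removed their median was -0.61. Of 7 neddylation genes compared, 1 was at least 2-fold lower and 0 higher. Ube2f, the Nedd8-conjugating enzyme that serves Rnf7 and Cul5, had 3 counts against 67 (ratio 22.3, 7.32 to 111), and Dcun1d3 was at the other end, 1.57-fold higher (1.23 to 2.00). Nedd8 itself had 5 and 11 counts. Cand1, which exchanges receptors on cullins, had 10523 and 9213 counts (1.14-fold higher, 1.11 to 1.17). Cand2 had 24 and 19.

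Of the Cul4 adaptors and receptors, 4 of 18 compared (22.2%) were at least 2-fold higher and 0 lower, with a median log2 ratio of 0.42. The median transcript of the 18 was long (5371 nt), and with the length trend removed their median was 0.31. Ddb1, the adaptor of Cul4, had 4323 counts against 1813 (2.38-fold higher, 2.26 to 2.52). This was the direction of Cul4a and opposite to that of Cul4b (20 against 36). Dcaf4 was the highest, at 1696 against 684 (2.48-fold, 2.27 to 2.71), and Dcaf13, a nucleolar protein needed in oocytes and preimplantation embryos, the lowest, at 3427 against 6299 (1.84-fold lower, 1.76 to 1.92). Of 86 Cul3 receptors listed, 28 were compared, with a median of 0.20, and 5 (17.9%) were higher and 3 (10.7%) lower by 2-fold or more. Enc1 had 149 against 60 (2.48-fold higher) and Klhl26 16 against 60 (3.75-fold lower). Of 21 Cul2 and Cul5 adaptors and receptors, 18 were compared, with a median of -0.04, and 1 was higher and 2 (11.1%) lower by 2-fold or more. Socs3, a brake on cytokine signalling, had 215 against 814 (3.79-fold lower, 3.25 to 4.42), and Zyg11b 208 against 100 (2.08-fold higher). Tceb1 (elongin C), the adaptor that links these receptors to Cul2 and Cul5, had 14 against 45 (3.21-fold lower, 1.73 to 6.34), opposite in direction to both scaffolds. Tceb2, on the same list, had 119 against 174 (1.46-fold lower, 1.15 to 1.86). Its transcript has 581 nt, and its log2 ratio of -0.53 became 0.99 with the length trend removed, while that of Tceb1 went from -1.40 to -1.12. Vhl had 2977 against 2187 (1.36-fold higher, 1.29 to 1.44).

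The E2 and Ariadne enzymes that work with cullins had a median of 0.20 over 8 genes, from Ube2g1 (245 against 644, 2.63-fold lower) to Ube2d2a (106 against 28, 3.79-fold higher). F-box genes that carry other symbols were in part abundant. Kdm2a had 2251 against 655 (3.44-fold higher, 3.15 to 3.75), Btrc, the partner of Fbxw11 in substrate choice, 3301 against 2623 (1.26-fold higher, 1.20 to 1.33), and Ccnf, cyclin F, 1239 against 2169 (1.75-fold lower, 1.63 to 1.88). Of the 5 compared, 1 was at least 2-fold higher and 0 lower. Of 25 known SCF substrates and cofactors, 20 were compared, with a median of -0.07. By 2-fold or more, Notch1 was higher (90 against 30), and Per1 (10 against 39) and Cks2 were lower. Cks2 was the lowest, with 91 against 321. Its transcript has 692 nt, and its log2 ratio of -1.76 was -0.39 with the length trend removed. The counts are of RNA and do not report the stability of the proteins.

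**Figure D5:**
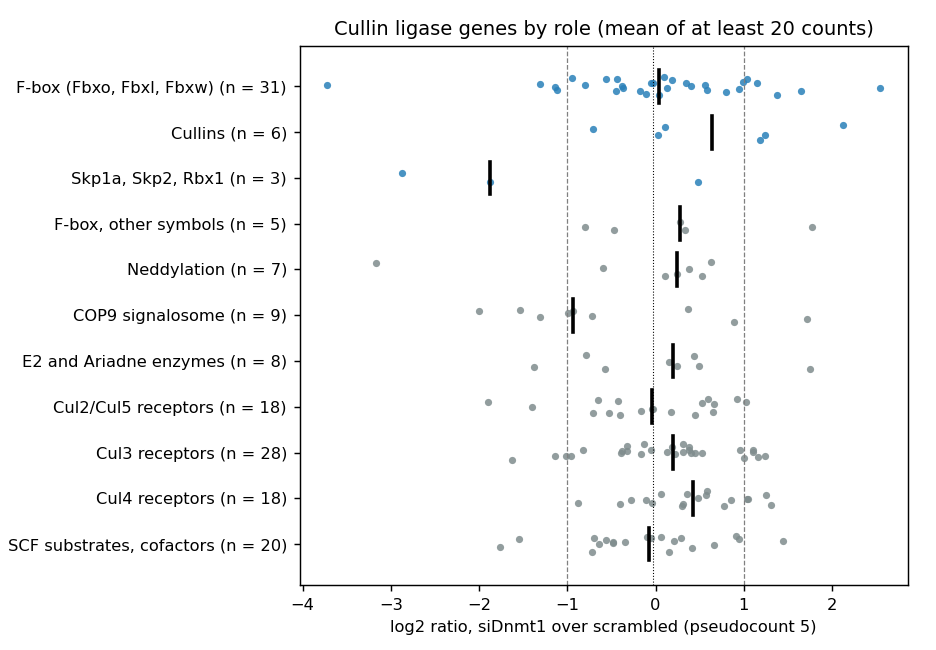
log2 ratio of siDnmt1 over scrambled for genes averaging 20 counts or more, grouped by role in cullin ligases, with members in blue, related genes in grey, black bars at the medians, dashed lines at 2-fold and a dotted line at the median of all genes. The COP9 signalosome has a median of -0.93 and the Cul4 receptors one of 0.42, and the F-box genes are spread on both sides of 0.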

How the data were processed

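RNA from 1 pool of embryos per siRNA was sequenced after amplification by 20 cycles of PCR, per the labels' protocols. The authors deposited counts per gene symbol for 23418 rows. The submitters' processing notes name Trim Galore, HISAT2, HTSeq, DESeq2 and mm9, without versions. The table is described as normalised, but no whole number from 1 to 59 was missing in either column (0 in each), and the values were used as counts, without further scaling. Were they rescaled before deposit, the counting intervals would be approximate. No molecular identifiers are described and PCR ran for 20 cycles, so several reads may come from 1 molecule. Intervals and floors cover counting error only, with each count taken as independent. Reads copied from 1 molecule would make the intervals too narrow. Genes averaging 20 counts or more were compared by log2 ratio with a pseudocount of 5, which understates changes at low counts. No quasi-likelihood test was run, because 1 library a group leaves no residual degrees of freedom. A fold against 0 used a floor of 3 counts per library. Transcript lengths are of the longest GENCODE M21 transcript (found for 7271 of 7315 genes compared and all 87 members). The length trend is a lowess curve with a span of 0.3.

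Members and lists were chosen with earlier results of these data known. The genes named are the cullins, Skp1a, Skp2 and Rbx1, F-box genes at least 2-fold apart, the 3 most abundant per length of each class, the oocyte-type copies with a count, 9 genes with known roles and the extremes of each list. Other genes were added after their values were seen. The scripts were tested on simulated data. R 4.3.3 with edgeR 4.0.16 gave the TMM factors. Intervals came from scipy 1.17.1 and trends from statsmodels 0.14.6, with pandas 2.3.3 and numpy 2.4.6 under Python 3.11.15, and plots from matplotlib 3.10.9. Alternatives were other pseudocounts, count minimums, scalings and thresholds, and trends on length and mean count. The values of 1 member compared are not reported here by name.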

Additional observations from a re-analysis of the deposited data

How the results depend on the processing

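The number of members at least 2-fold higher, 8, was 3 among those averaging 100 counts or more and 2 at a 4-fold threshold. The number at least 2-fold lower, 7, was 4 with that minimum, 2 at 4-fold and 14 with no filter on low counts. Under the other alternatives run, both counts stayed within 1.5 times. The medians of all members, of the F-box genes and of the core subunits stayed inside their 95% order-statistic intervals under every alternative run. Of the single members past 2-fold, 0 changed direction under the 8 settings that can alter a gene's own ratio. For most of these settings that was fixed in advance. A pseudocount cannot change a direction, and the scalings moved the median of all genes by only -0.07 to 0.09. Only removal of a trend on length or mean count could have reversed such a ratio. Over the 41 members compared and the 8 settings, 29 of 328 log2 ratios lay outside the member's own counting interval. Fbxl20 went from 0.57 to 0.37 with the length trend removed and to 0.66 with equal totals without Rn45s. Under the same settings Cul5 went from 1.18 to 1.04 and 1.28, and Fbxo15 from -0.36 to -0.24 and -0.27. The counting intervals do not cover such choices of processing. Fbxl19 (-0.85), Fbxw24 (-0.93) and Fbxw9 (0.80) were inside 2-fold with a pseudocount of 20, and Fbxw9 (0.98) with equal totals. Fbxw8 and Fbxo16 were past 2-fold with a pseudocount of 1, at 1.01 and 1.06. The cause was not tested, except that a stricter threshold or count minimum leaves fewer genes by construction. The trend on coding transcript length was added after seeing the data. No paired analysis was possible because each group had 1 library, and for the same reason no library could be left out.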

Other observations

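Of the F-box genes, 3 encode proteins with a CXXC zinc finger that binds unmethylated CpG-rich DNA, and they did not share a direction. Kdm2a had 2251 counts after siDnmt1 and 655 after the scrambled siRNA (3.44-fold higher, 3.15 to 3.75), Kdm2b 229 against 319 (1.39-fold lower, 1.17 to 1.66) and Fbxl19 25 against 61 (2.44-fold lower, 1.51 to 4.06). The set was chosen after its values were seen.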
